A study of Mus musculus with 6 samples.

Results

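Leukocyte adhesion molecules are the cell-surface proteins with which white blood cells roll on, hold to and pass through vessel walls and bind matrix and other cells. The set described here has 8 genes of the 32285 in the count files, chosen by gene symbol, and all 8 were found: the ligands Icam1 and Vcam1, the integrin subunits Itgam, Itgal, Itgb2 and Itga4, the selectin ligand Selplg and the hyaluronan receptor Cd44. The question was in which cells of a mouse pancreatic tumour each gene was read, and whether its level differed between tumours of OE-MLKL and of OE-Vector cancer cells.

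The tumours grew in the pancreas of C57BL/6 mice, bought at 6 to 8 weeks of age, after injection of 1000000 KPC cells. KPC cells are a mouse pancreatic cancer line, and they carried either an MLKL overexpression construct (OE-MLKL) or the control vector (OE-Vector). MLKL is the protein that breaches the plasma membrane in necroptosis. Primary tumours were taken 4 weeks after injection, digested and sequenced by 10x 3′ single-cell RNA-seq, 1 tumour per library. The labels name 3 samples per group, and 4 count matrices were analysed here: OE-Vector 1, OE-MLKL 1, OE-MLKL 2 and OE-MLKL 3, while OE-Vector 2 and OE-Vector 3 were not analysed here. OE-Vector 1 is called the control library, or the control. Both groups share the host strain, the KPC line and the site, and the construct was in the injected cells, so every macrophage, neutrophil, T cell, dendritic cell and endothelial cell was of the host. The labels do not say whether a line was 1 clone.

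Integrins are pairs of an alpha and a beta chain. Itgb2 encodes the beta chain CD18, which pairs with the alpha chain CD11a of Itgal to form LFA-1 and with the alpha chain CD11b of Itgam to form Mac-1. Both bind ICAM-1, the product of Icam1, an immunoglobulin-type ligand that inflamed endothelium is known to display. Itga4 encodes the alpha chain of VLA-4, whose best known ligands are VCAM-1, the product of Vcam1, and fibronectin. Selplg encodes PSGL-1, the main ligand of P-selectin during rolling, and Cd44 encodes a receptor of hyaluronan that many cell types carry.

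The libraries held 150591289 to 169978362 UMIs (molecular tags that count each captured transcript once) and 15382 to 23063 cells. Of 74545 cells, 58832 entered one of 6 classes gated on marker genes that include none of the 8 genes: 19625 cancer cells, 9333 macrophages, 26672 neutrophils, 2763 T cells, 301 dendritic cells and 138 endothelial cells. Per library, the cells of a class ranged from 2654 to 7244 for cancer cells, 1868 to 2569 for macrophages, 5388 to 8615 for neutrophils, 539 to 930 for T cells, 38 to 130 for dendritic cells and 22 to 46 for endothelial cells, so the last 2 classes carry the widest counting error. Pairs of libraries shared 73 to 134 cell barcodes. Mlkl itself was read at 16.5 CPM (UMIs per 1000000 UMIs of the class) in cancer cells of OE-Vector 1 and at 8.56, 12.97 and 20.1 CPM in those of OE-MLKL 1, 2 and 3. The libraries labelled OE-MLKL were thus not all above the control in Mlkl, and after TMM scaling, which corrects for differences in RNA composition and is used in the fit, all 3 were under it (17.4 CPM in the control against 9.02, 13.5 and 17.3 CPM; log2 fold change -0.39 ± 0.39, SE). Whether the transcript of the construct would be counted by a 3′ read is not given in the sources used here, and every direction below rests on the labels. OE-Vector 1 and OE-MLKL 3 also stood above OE-MLKL 1 and 2 in many genes, among them Ptprc, the pan-leukocyte antigen CD45, and the nuclear RNA Malat1; their values stand beside the main results they move with.

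The promoters of Icam1 and Itgam, an integrin ligand and one of its receptor chains, are shown as examples with a match to a motif searched. Both are among the 4 of 8 genes with an entry in the RefSeq promoter table (build GRCm38.p6); Cd44, with 1 PU.1-type match, and Itga4, with none, are not shown. Each sequence runs from 250 bases before to 50 bases after the transcript start, 5′ to 3′ on the plus strand, at chr9:21015690-21015989 for Icam1 and chr7:128062390-128062689 for Itgam. Capitals mark an NF-kB-type motif, GGAANTTCC, in Icam1, and a PU.1-type motif, GAGGAAG or its reverse complement, in Itgam; both strands were searched.
Icam1: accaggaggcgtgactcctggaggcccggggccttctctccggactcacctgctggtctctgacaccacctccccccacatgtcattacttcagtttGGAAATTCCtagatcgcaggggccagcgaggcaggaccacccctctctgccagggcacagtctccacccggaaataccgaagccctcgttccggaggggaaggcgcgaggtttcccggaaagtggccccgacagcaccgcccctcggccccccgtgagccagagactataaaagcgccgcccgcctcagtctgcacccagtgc
Itgam: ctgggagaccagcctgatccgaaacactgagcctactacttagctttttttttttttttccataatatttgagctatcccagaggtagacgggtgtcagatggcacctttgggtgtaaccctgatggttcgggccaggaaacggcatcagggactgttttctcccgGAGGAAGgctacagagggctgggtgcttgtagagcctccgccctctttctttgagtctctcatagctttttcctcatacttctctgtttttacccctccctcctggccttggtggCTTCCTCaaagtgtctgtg
NF-kB is a transcription factor of inflammation and PU.1 one of myeloid cells. The Icam1 window held 1 match, 153 bases before the start, and 0.928% of 32851 promoter windows of 300 bases held one. The Itgam window held 2 matches, one of them 84 bases before the start, and 13.6% of windows held at least 1. A match describes the letters and does not show that a factor binds there.

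Each gene had its own order of classes. For 3 of the 8 genes (Vcam1 in macrophages, Selplg in neutrophils and Cd44 in neutrophils), the lowest library of the highest class stood above the highest library of the next class. The same held for 27.5% of the 9261 genes with a mean of at least 10 CPM, so the share among the 8 was near that of genes at large. CPM are taken over the summed cells of a class and library, and values are compared between classes and libraries for one gene at a time, not between genes.

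**Figure D1:**
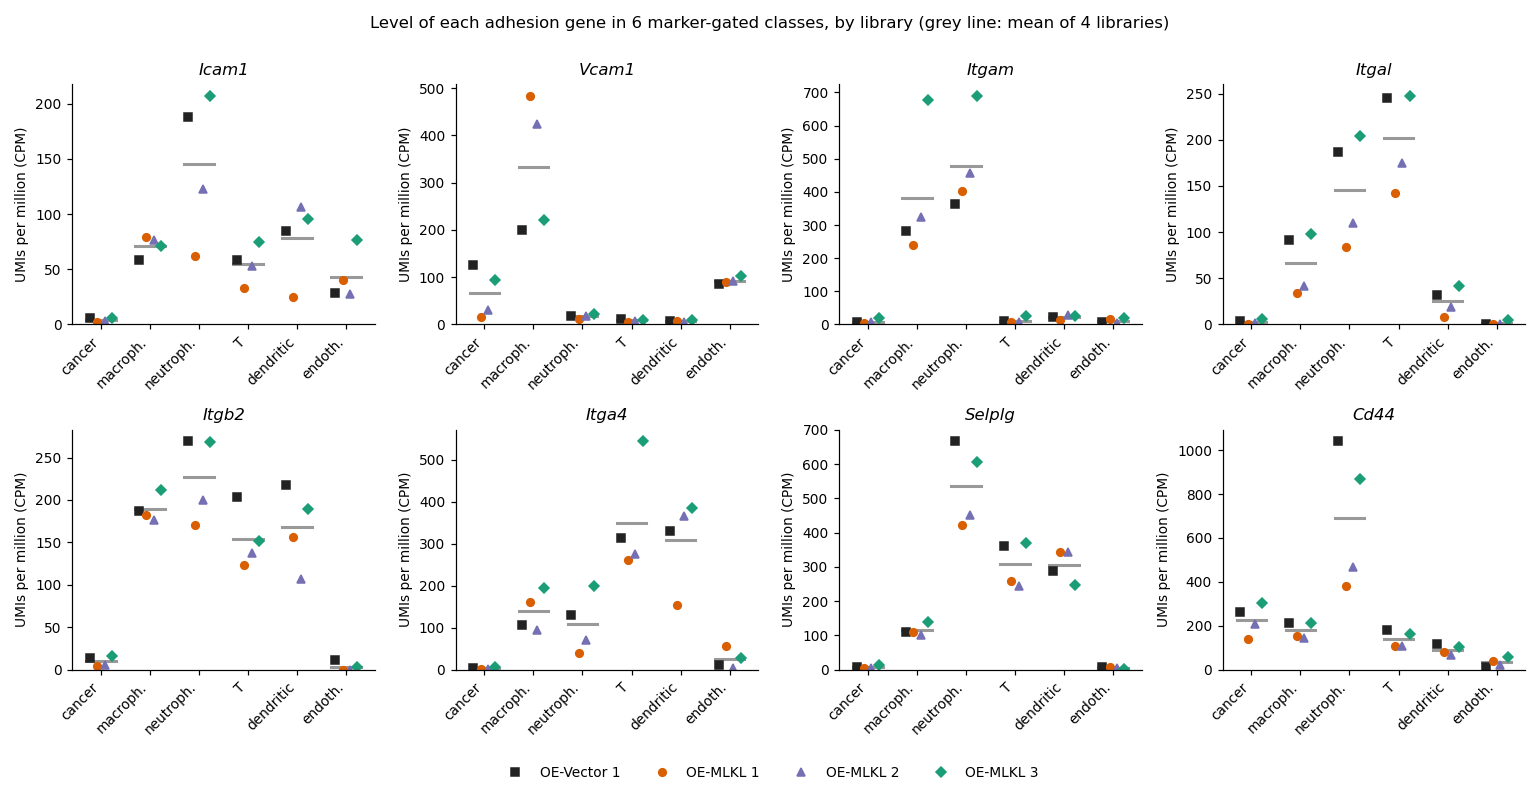
CPM (linear axes from 0, a separate scale per gene) of the 8 genes in the 6 marker-gated classes, 1 point per library, with a grey line at the mean of 4 libraries. Vcam1 was highest in macrophages, Cd44 and Selplg in neutrophils, and the 4 points of a class often spread widely, as for Cd44 in neutrophils (382 to 1043 CPM).

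Vcam1, on chromosome 3 at 116109949 to 116129688, minus strand (GRCm38), had its highest CPM in macrophages. There it stood at 199 CPM in the control and at 484, 424 and 221 CPM in OE-MLKL 1, 2 and 3, so that OE-Vector 1 and OE-MLKL 3 were the low pair and all 3 OE-MLKL libraries lay above the control. Endothelial cells came next with 85.2 CPM in the control and 89.2, 92.7 and 102 CPM in OE-MLKL 1, 2 and 3, the closest agreement between libraries of any class for this gene, from 11 to 40 UMIs per library. Cancer cells held 126.6 CPM in OE-Vector 1 but 15.5, 29.7 and 94.5 CPM in OE-MLKL 1, 2 and 3, a range of over 8-fold that overlapped the endothelial values. Neutrophils held 11.99 to 21.9 CPM, T cells 5.47 to 11.9 CPM and dendritic cells 4.64 to 8.33 CPM. These last 3 classes were at or close to background from free RNA, the RNA that leaks from broken cells into every droplet. In neutrophils Vcam1 was at 0.149 to 0.246 of its free RNA level, that of barcodes of at most 100 UMIs. The 13 cancer cell markers, which neutrophils should lack, were there at 0.138 to 0.226 of theirs. In T cells Vcam1 was at 0.0683 to 0.105 and these markers at 0.0505 to 0.126. In dendritic cells Vcam1 was at 0.0612 to 0.103 and these markers at 0.107 to 0.172.

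Icam1, on chromosome 9 at 21015985 to 21028817, plus strand, was highest in neutrophils, with 188 CPM in the control and 62.1, 123 and 207 CPM in OE-MLKL 1, 2 and 3. Neutrophils stood above dendritic cells in all 4 libraries, by 1.86-fold in the mean, although the ranges overlapped. Dendritic cells (24.8 to 106.7 CPM), macrophages (58.1 to 79.4 CPM), T cells (33.3 to 74.9 CPM) and endothelial cells (27.5 to 76.5 CPM) could not be ranked beyond the spread of their libraries. In cancer cells Icam1 was read at 5.86 CPM in the control and 2.07, 3.02 and 5.64 CPM in OE-MLKL 1, 2 and 3, below every other class in every library. That was 0.0911 to 0.120 of its free RNA level, while Ptprc, which cancer cells should lack, was at 0.0464 to 0.103 of its own, so the Icam1 reads of cancer cells were at or close to background.

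Itgam, on chromosome 7 at 128062640 to 128118491, plus strand, overlaps the annotated gene Gm49368 on the same strand, so reads in the shared part may have been assigned to either or dropped. It was read in neutrophils at 364 CPM in the control and 404, 456 and 690 CPM in OE-MLKL 1, 2 and 3. In macrophages it stood at 281 CPM in the control and at 240, 324 and 676 CPM in OE-MLKL 1, 2 and 3. OE-MLKL 3 was the highest library in both. Neutrophils were above macrophages in all 4 libraries but only by 1.26-fold in the mean, with overlapping ranges. Macrophages were 17.5-fold above dendritic cells (12.4 to 27.8 CPM), without overlap, and the mean was lower still in T cells, endothelial cells and cancer cells, which overlapped each other.

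Itgal, on chromosome 7 at 127296260 to 127335138, plus strand, was highest in T cells, with 245 CPM in the control and 142, 175 and 248 CPM in OE-MLKL 1, 2 and 3. Neutrophils followed with 186 CPM in the control and 83.7, 110.04 and 205 CPM in OE-MLKL 1, 2 and 3. T cells were above neutrophils in 4 of 4 libraries by 1.38-fold in the mean, and neutrophils above macrophages (34.0 to 97.7 CPM) in 4 of 4 by 2.21-fold, with overlapping ranges at each step because OE-Vector 1 and OE-MLKL 3 were high in all 3 classes. Dendritic cells held 8.25 to 41.7 CPM. Endothelial cells held 0 UMIs in the control and in OE-MLKL 1 and 2, and 2 UMIs in OE-MLKL 3. A count of 0 there allows up to 6.56, 24.3 and 10.3 CPM (3 UMIs of the total; counting error only), so a level as in T cells would have been seen and one as in cancer cells (0.978 to 5.74 CPM) would not.

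Itgb2, the beta chain that pairs with both of the preceding alpha chains, lies on chromosome 10 at 77530252 to 77565708, plus strand. It was read in all 4 leukocyte classes within a narrow band. Neutrophils held 269.6 CPM in the control and 169.97, 199.9 and 268 CPM in OE-MLKL 1, 2 and 3. Macrophages held 176 to 211 CPM, dendritic cells 106.7 to 218 CPM and T cells 123 to 203 CPM, and each of these neighbours overlapped the next. T cells were 15.5-fold above cancer cells (4.39 to 15.6 CPM) without overlap, and endothelial cells held at most 5 UMIs in any library.

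Itga4, on chromosome 2 at 79255426 to 79333123, plus strand, overlaps Cerkl on the other strand. T cells held 314 CPM in the control and 260.3, 276 and 544 CPM in OE-MLKL 1, 2 and 3. Dendritic cells held 329 CPM in the control and 153, 366 and 386 CPM in OE-MLKL 1, 2 and 3. Each class was the higher in 2 of 4 libraries, so the order of T cells and dendritic cells was open. Macrophages (93.2 to 195 CPM) and neutrophils (38.7 to 198 CPM) formed the next pair, again in either order by library. Itgb1, the beta chain of VLA-4, was read in all classes, at a mean of 242 CPM in T cells and 1023 CPM in endothelial cells. Itgb7, the other beta chain of Itga4, had its highest mean in dendritic cells at 143 CPM (102 to 182 CPM), overlapping T cells (24.0 to 171 CPM). In the control, T cells were above dendritic cells, at 171 against 128 CPM.

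Selplg, on chromosome 5 at 113818536 to 113832644, minus strand, was highest in neutrophils, with 668 CPM in the control and 422, 452 and 605 CPM in OE-MLKL 1, 2 and 3. The lowest of these was above the highest T cell value. T cells (243 to 370.4 CPM) and dendritic cells (247 to 343 CPM) shared second place, each higher in 2 of 4 libraries. Macrophages held 101.4 to 138 CPM, 2.67-fold below dendritic cells and without overlap. Cancer cells (3.44 to 13.2 CPM) and endothelial cells (2.55 to 8.11 CPM) were both near their background. Selp, the P-selectin that PSGL-1 binds, was read in endothelial cells at 19.7 CPM in the control and 64.8, 17.2 and 17.8 CPM in OE-MLKL 1, 2 and 3. Sele, E-selectin, was there at 0 CPM in the control and 8.11, 13.7 and 2.55 CPM in OE-MLKL 1, 2 and 3. A count of 3 UMIs makes 6.56, 24.3, 10.3 and 7.65 CPM in the same order of libraries, so Sele was near the lower limit of counting.

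Cd44, on chromosome 2 at 102811141 to 102901665, minus strand, was highest in neutrophils and, unlike the other 7 genes, stood second in cancer cells. Neutrophils held 1043 CPM in the control and 382, 466 and 871 CPM in OE-MLKL 1, 2 and 3. Cancer cells held 263 CPM in the control and 139.9, 206 and 303 CPM in OE-MLKL 1, 2 and 3. That was 0.845 to 1.23 of its free RNA level, where Ptprc was at 0.0464 to 0.103 of its own. Neutrophils were 3.03-fold above cancer cells in the mean, without overlap. Macrophages (145 to 214 CPM) overlapped cancer cells, T cells held 107 to 182 CPM, dendritic cells 64.9 to 115.6 CPM, and endothelial cells 13.1 to 56.1 CPM.

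Because the classes differ in size and in RNA per cell, the class with the highest CPM was not always the one that held most UMIs. Cancer cells held 60.2% to 79.5% of the Cd44 UMIs of the 6 classes, and neutrophils 10.1% to 26.9%. For Vcam1 the shares moved between libraries: cancer cells held 73.7% of Vcam1 UMIs in one library and 20.8% in another, and macrophages 24.3% to 78.0%. Macrophages and neutrophils together held most Itgam UMIs in every library, with medians of 55.5% and 37.96%. Neutrophils held a median of 56.8% of Selplg UMIs. Endothelial cells held at most 0.693% of the UMIs of any of the 8 genes.

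**Figure D2:**
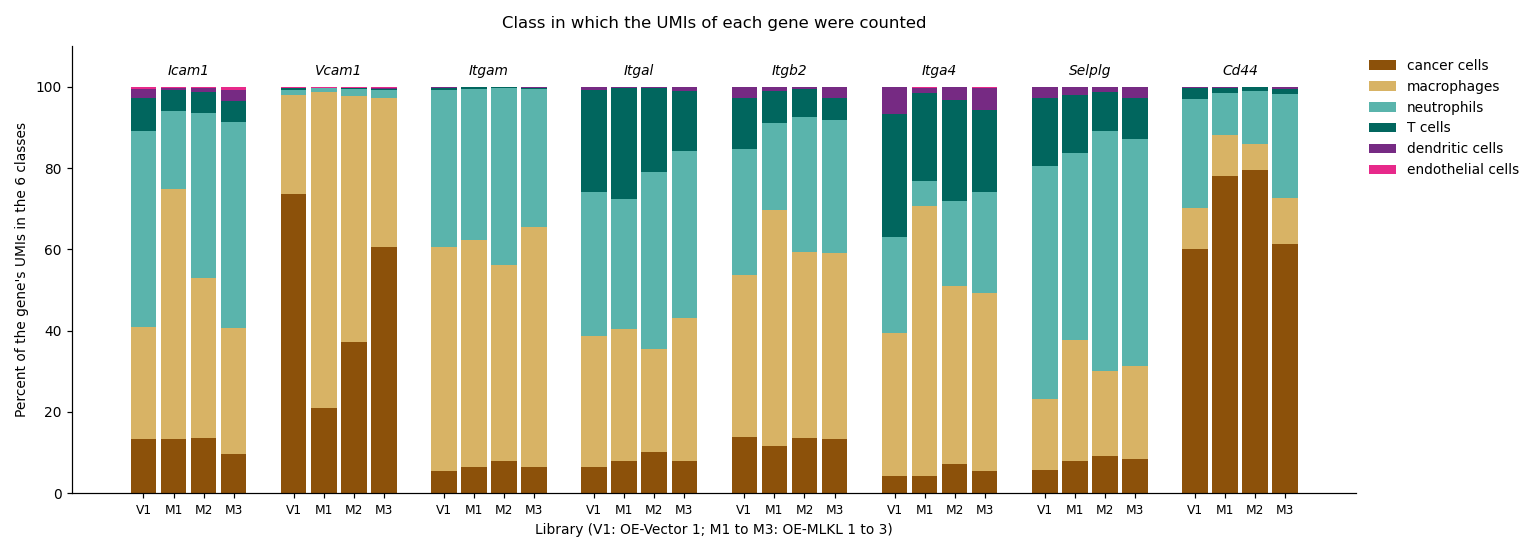
Percent of the UMIs of each gene in the 6 classes that fell in each class, 1 bar per library (V1: OE-Vector 1; M1 to M3: OE-MLKL 1 to 3). Cancer cells held most Cd44 UMIs in every library, whereas for Vcam1 the cancer cell share ran from 20.8% to 73.7%.

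Shares of cells with a UMI depend on depth, and the median cell had 740 to 1418 UMIs in neutrophils but 12302.5 to 25575 in cancer cells. With every cell thinned to 500 UMIs, which leaves out no cell, Cd44 was seen in 16.6% to 37.98% of neutrophils and 6.33% to 12.5% of cancer cells, against 25.6% to 66.4% and 73.9% to 92.2% unthinned. Selplg was seen in 18.5% to 27.7% of thinned neutrophils and 13.5% to 19.4% of thinned T cells (28.5% to 56.0% and 53.9% to 73.9% unthinned). Itga4 was seen in 13.2% to 23.2% of thinned T cells and 10.3% to 19.6% of thinned dendritic cells (54.9% to 73.5% and 47.4% to 84.6% unthinned). For comparison, Itgam in T cells, a class with little of it, gave 0.214% to 1.34% thinned.

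The genes whose levels ran most like those of each gene over the 24 class-by-library sums were found by Pearson's r of log2(CPM + 1) among 9191 genes, with the gate markers left out. Sums of one library share its depth and the classes are few, so r describes a profile over classes. For Itgb2 these were Ptpn6 (r = 0.982), Was (0.971) and Myo1f (0.968). Itgal ran with Dennd1c (0.972), Rhoh (0.971) and Rac2 (0.963), and Selplg with Cd52 (0.984), Ankrd44 (0.974) and Coro1a (0.973). Itgam ran with Fcgr4 (0.959), Cyp4f18 (0.958) and Slc15a3 (0.958), and Itga4 with Ptpn7 (0.936), Rab8b (0.936) and Arhgap30 (0.933). Profiles less like any other gene were those of Icam1, with Wipf1 (0.933) and Birc3 (0.931), Vcam1, with Cfb (0.927) and Zfp703 (0.907), and Cd44, with Junb (0.914), AI467606 (0.906) and Plekhg3 (0.900).

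Between OE-MLKL and OE-Vector tumours, none of the 8 genes passed the test in any class. Summed UMIs per class and library were compared with edgeR's quasi-likelihood test, 3 OE-MLKL libraries against 1 OE-Vector library, with Benjamini-Hochberg adjustment over all genes tested in the class and a threshold of 0.05. With 1 control library the spread comes from the OE-MLKL libraries alone, and the control is assumed to vary as they do. An exact permutation test of 1 library against 3 could not give a p below 0.25. Of 43 tests (5 gene and class pairs had too few UMIs), edgeR called 0 and gave 1 unadjusted p under 0.05, DESeq2 called 0 with 2 such p, and limma-voom called 0 with 0 such p. The smallest edgeR adjusted p was 0.6002. The share of all genes called was also small: 0.00583% in cancer cells, 0.0292% in macrophages, 0.0% in neutrophils, 0.00881% in T cells, 0.0% in dendritic cells and 0.923% in endothelial cells.

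**Figure D3:**
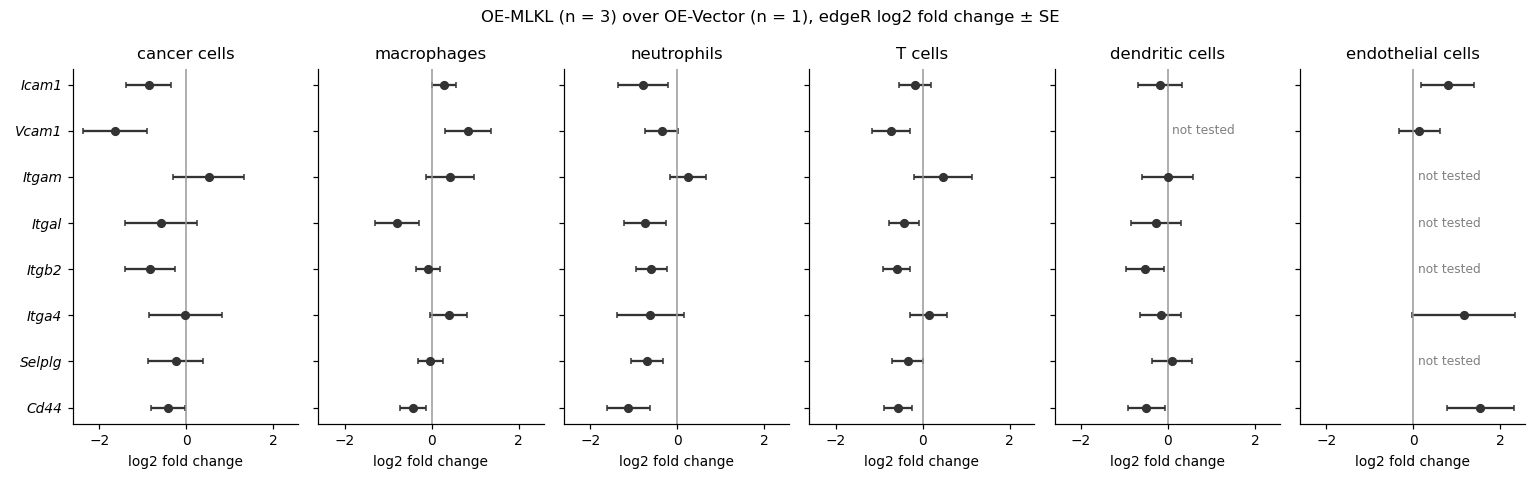
edgeR log2 fold change of OE-MLKL (n = 3 libraries) over OE-Vector (n = 1 library) with its standard error, for the 8 genes in each class; pairs with too few UMIs are marked as not tested. No pair passed the threshold, and the values farthest from 0 were those of Vcam1 in cancer cells (-1.64) and Cd44 in endothelial cells (1.54).

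In cancer cells, Vcam1 had a log2 fold change of -1.64 ± 0.73 (SE; edgeR adjusted p = 0.999), and OE-Vector 1 lay above all 3 OE-MLKL libraries, although OE-MLKL 3 at 94.5 CPM was far closer to the control at 126.6 CPM than to OE-MLKL 1 at 15.5 CPM. The share of cancer cells with at least 1 Vcam1 UMI was 64.2% in the control and 13.2%, 20.7% and 51.5% in OE-MLKL 1, 2 and 3. With cells thinned to 500 UMIs it was 5.71% in the control and 0.703%, 1.36% and 3.93% in OE-MLKL 1, 2 and 3, the same order. In thinned neutrophils, where Vcam1 was at background, it was 0.949% in the control and 0.632%, 0.846% and 1.13% in OE-MLKL 1, 2 and 3. The classes differ in background, so the neutrophil share is not a floor for cancer cells. Vcam1 in cancer cells was at 0.194 of its free RNA level in OE-MLKL 1 and at 1.07 in the control. Ptprc in cancer cells was at 0.0464 to 0.103 of its own, below both. Cells with at least 5 Vcam1 UMIs made up 23.2% of cancer cells in the control and 0.945%, 1.75% and 12.2% in OE-MLKL 1, 2 and 3. The 10% of cells with the highest Vcam1 share held 48.0% of its UMIs in the control and 85.6%, 72.5% and 55.7% in OE-MLKL 1, 2 and 3. Both measures depend on depth and on how few cells held a UMI, so neither shows that Vcam1 was confined to fewer cells. Over the alternatives, the log2 fold change of Vcam1 ran from -2.49 to -1.25. The lowest value was the one without OE-MLKL 3, where the spread came from OE-MLKL 1 and 2 alone.

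Macrophage markers, summed over 11 genes, stood in cancer cells at 190.7 CPM in the control and 113.01, 157.97 and 344.9 CPM in OE-MLKL 1, 2 and 3, so that OE-Vector 1 and OE-MLKL 3 were the high pair, as for Vcam1. Per 100 UMIs of these markers, cancer cells held 66.4 Vcam1 UMIs in the control and 13.7, 18.8 and 27.4 in OE-MLKL 1, 2 and 3, whereas macrophages held 1.23 in the control and 3.30, 2.47 and 1.35 in OE-MLKL 1, 2 and 3. This ratio was 4.16-fold to 54.0-fold higher in cancer cells than in macrophages. These 11 markers let cells into the macrophage class and barred them from the cancer class, which by itself raises the ratio in cancer cells. The part of macrophage RNA in the Vcam1 of cancer cells was not tested. Fibroblast and mesothelial markers, summed over 6 genes, stood at 129.6 CPM in cancer cells of OE-Vector 1 and at 76.5, 78.3 and 118.9 CPM in those of OE-MLKL 1, 2 and 3, the same order of libraries as Vcam1 over a narrower range, and their part in the result was not tested. Monocyte markers, summed over 4 genes, stood at 6.93 UMIs per 10000 in cancer cells of the control and at 3.31, 2.17 and 3.91 in those of OE-MLKL 1, 2 and 3, with the control highest as for Vcam1. The cancer cell markers themselves summed to 35.7 UMIs per 10000 in the control and to 20.1, 25.4 and 28.0 in OE-MLKL 1, 2 and 3. The median cancer cell had 25575, 12828, 12302.5 and 20654.5 UMIs in the same order of libraries. Cells within 1.5-fold of the level needed to enter the class (10 marker UMIs per 10000) made up 3.54% of cancer cells in the control. They made up 30.4%, 14.8% and 13.5% in OE-MLKL 1, 2 and 3, so the gate cut the libraries differently. The part of these differences was not tested either. In cancer cells Ptprc was at 12.99 CPM in the control and 3.35, 6.29 and 22.4 CPM in OE-MLKL 1, 2 and 3, and Malat1 at 14483, 11962, 10648 and 32630 CPM in the same order of libraries.

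**Figure D4:**
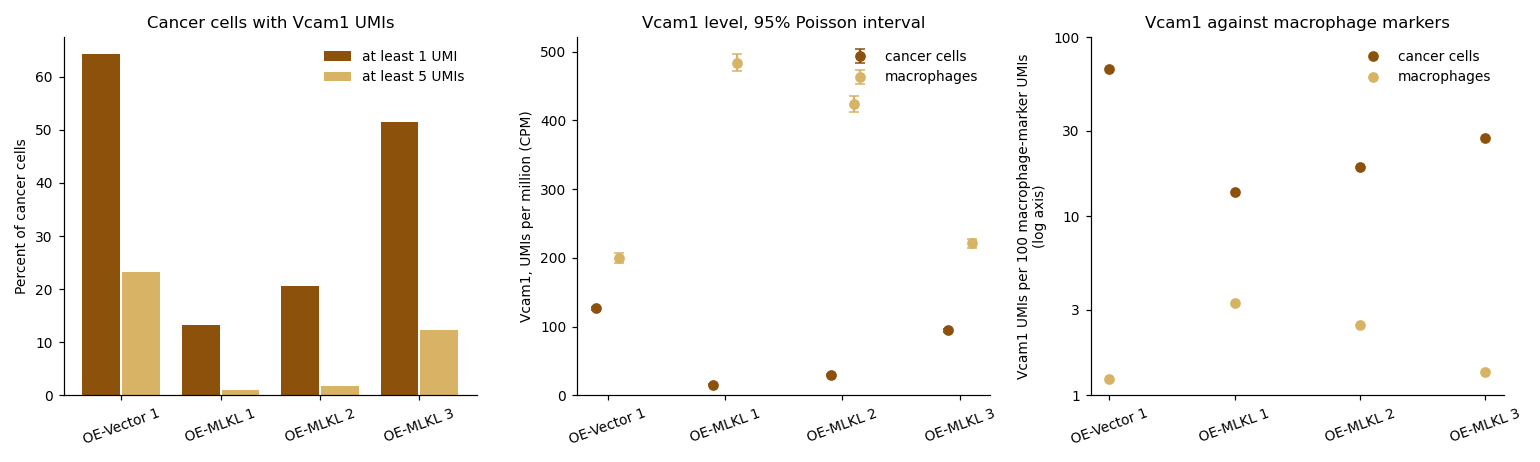
Vcam1 in cancer cells and macrophages by library: percent of cancer cells with at least 1 or at least 5 UMIs (left), CPM with 95% Poisson intervals, which cover counting error only (middle), and Vcam1 UMIs per 100 macrophage-marker UMIs on a log axis (right). OE-Vector 1 and OE-MLKL 3 were the high libraries in cancer cells and the low ones in macrophages. The marker ratio was higher in cancer cells in all 4 libraries, but the same markers were used to gate both classes.

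The other 7 genes of cancer cells had log2 fold changes between -0.87 (Icam1) and 0.51 (Itgam), none past the test. Cd44, the only one of them clearly above background there, was at -0.42 ± 0.38 (SE). OE-Vector 1 lay outside the OE-MLKL range for 2 of 8 genes, Icam1 and Vcam1, both with the control higher, where 50.4% of all genes tested lay outside.

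In macrophages the log2 fold change of Vcam1 was 0.82 ± 0.53 (SE; edgeR adjusted p = 0.844). Monocyte markers, summed over 4 genes, did not bar a cell from the macrophage class. They were at 6.45 UMIs per 10000 in macrophages of the control and 8.003, 12.7 and 6.57 in those of OE-MLKL 1, 2 and 3. The low and high pairs of libraries were those of Vcam1, and the part of these markers in the result was not tested. Itgal had -0.80 ± 0.52 (SE): 91.5 CPM in OE-Vector 1 against 34.0, 41.3 and 97.7 CPM in OE-MLKL 1, 2 and 3. Over the alternatives it ran from -1.35 to -0.56. The lowest value was the one without OE-MLKL 3, where the spread came from OE-MLKL 1 and 2 alone. Ptprc in macrophages had the same high and low pairs of libraries, with 415 CPM in the control and 254, 282 and 551 CPM in OE-MLKL 1, 2 and 3, and so had Malat1, with 9434 CPM in the control and 5151, 4656 and 15743 CPM in OE-MLKL 1, 2 and 3. T cell markers, summed over 10 genes, were at 0.276 UMIs per 10000 in macrophages of the control and 0.08997, 0.0867 and 0.196 in those of OE-MLKL 1, 2 and 3. The part of these differences in the result was not tested. Itgam had 0.42 ± 0.55 and Itgb2 -0.09 ± 0.28 (SE). OE-Vector 1 lay outside the OE-MLKL range for 2 of 8 genes, Icam1 and Vcam1, here with the control lower, beside 53.9% of all genes. For Vcam1 this did not hold after TMM scaling, which put OE-MLKL 3 just below the control.

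In neutrophils 7 of the 8 genes had negative log2 fold changes, with a median of -0.65 beside 0.04 for all genes, and none passed the test. Cd44 was at -1.12 ± 0.49 (SE; edgeR adjusted p = 0.6002), followed by Icam1 at -0.79 ± 0.58, Itgal at -0.75 ± 0.48, Selplg at -0.69 ± 0.36, Itga4 at -0.61 ± 0.78 and Itgb2 at -0.60 ± 0.35 (SE). Itgam, at 0.25 ± 0.42, was the exception in direction. OE-Vector 1 lay outside the OE-MLKL range for 4 of 8 genes (Cd44, Itgb2 and Selplg with the control higher, Itgam with the control lower), beside 59.2% of all genes. The low libraries were OE-MLKL 1 and 2. For Cd44, OE-MLKL 1 was at 36.6% and OE-MLKL 2 at 44.7% of OE-Vector 1, and OE-MLKL 3 at 83.5%. Ptprc moved the same way, with 1089 CPM in the control and 442, 614 and 1332 CPM in OE-MLKL 1, 2 and 3, and so did Malat1, with 25580 CPM in the control and 12626, 11052 and 25631 CPM in OE-MLKL 1, 2 and 3. Median depth was 1205, 740, 777 and 1418 UMIs per neutrophil. Macrophage markers were at 6.52 UMIs per 10000 in neutrophils of the control and 3.44, 4.98 and 8.63 in those of OE-MLKL 1, 2 and 3. The part of these differences in the result was not tested. Over the alternatives, the log2 fold change of Cd44 ran from -1.52 to -0.86 and that of Itgal from -1.17 to -0.49. That of Itga4 ran from -1.49 to -0.23 and that of Icam1 from -1.25 to -0.46. The lowest value of each was the one without OE-MLKL 3, where the spread came from OE-MLKL 1 and 2 alone.

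**Figure D5:**
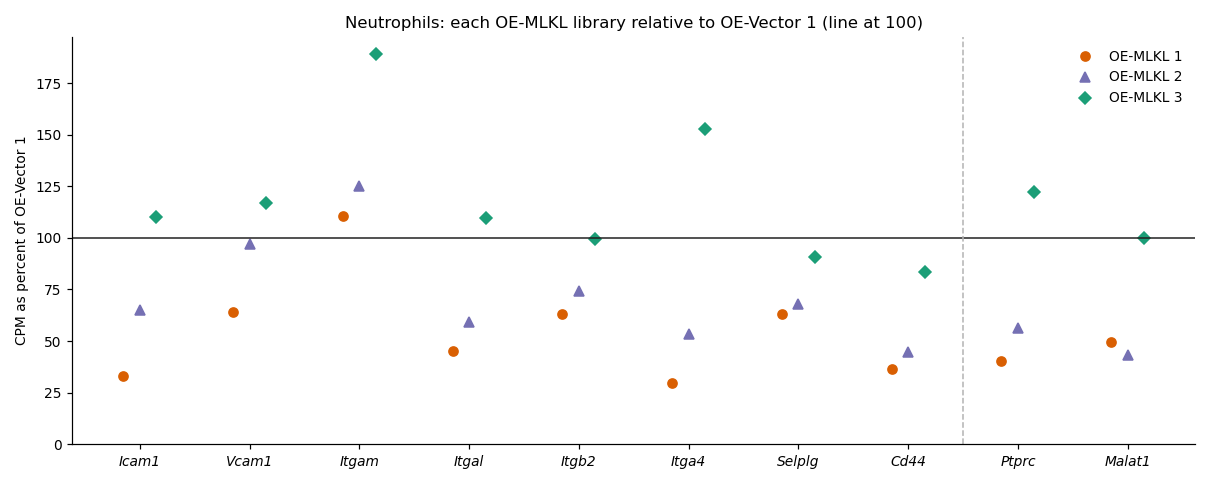
CPM of the 8 genes and, right of the dashed line, of Ptprc and Malat1 in neutrophils, each OE-MLKL library as a percent of OE-Vector 1 (line at 100; axis from 0). OE-MLKL 1 and 2 lay below the line for every gene shown but Itgam, and OE-MLKL 3 near or above it for most, with Cd44 at 83.5%.

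In T cells the log2 fold changes ran from -0.72 (Vcam1, at background) to 0.47 (Itgam). Itgb2 had -0.59 ± 0.31 (SE; edgeR adjusted p = 0.996), with 203 CPM in the control and 123, 137 and 151 CPM in OE-MLKL 1, 2 and 3. Cd44 had -0.56 ± 0.32 (SE), with 182 CPM in the control and 107, 109.0 and 164 CPM in OE-MLKL 1, 2 and 3. For these and for Vcam1 the control lay above all 3 OE-MLKL libraries, 3 of 8 genes beside 44.3% of all genes lying outside in either direction. Itgal and Selplg were lower in OE-MLKL 1 and 2 and at the level of the control in OE-MLKL 3. Ptprc in T cells was at 1240 CPM in the control and 791, 935 and 1467 CPM in OE-MLKL 1, 2 and 3, and Malat1 at 10927, 6158, 6673 and 17534 CPM in the same order of libraries. Natural killer (NK) cell markers, summed over 5 genes, were at 37.1 UMIs per 10000 in the T cells of the control and 4.57, 8.44 and 17.2 in those of OE-MLKL 1, 2 and 3, the order of libraries of Itgb2 and Cd44, although the median T cell had 0 of the 5 markers in every library. The part of these differences in the result was not tested.

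In dendritic cells, with 38 and 40 cells in OE-MLKL 1 and 2, 7 genes were tested and none passed. Itgb2 (-0.53 ± 0.43, SE) and Cd44 (-0.50 ± 0.42, SE) were lower in all 3 OE-MLKL libraries than in the control, 2 of 7 genes beside 40.5% of all genes. Ptprc was at 466.6 CPM in the control and 305, 325 and 648 CPM in OE-MLKL 1, 2 and 3, and Malat1 at 24832, 12885, 11740 and 32377 CPM in the same order of libraries. Selplg and Itgam had fold changes near 0 (0.09 ± 0.46 and -0.01 ± 0.59 on the log2 scale, SE).

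In endothelial cells 4 genes were tested. Cd44 had the only unadjusted edgeR p under 0.05 of the 43 tests (log2 fold change 1.54 ± 0.77, SE; edgeR adjusted p = 0.781). It rested on 6 UMIs in OE-Vector 1 (13.1 CPM, 95% Poisson interval 4.81 to 28.5) and on 5, 6 and 22 UMIs in OE-MLKL 1, 2 and 3 (40.5, 20.6 and 56.1 CPM), and the interval of OE-MLKL 1, 13.2 to 94.6 CPM, overlapped that of the control. Cd44 in endothelial cells was at 0.0456 to 0.245 of its free RNA level, lowest in the control, while Ptprc, which endothelial cells should lack, was at 0.0 to 0.0937 of its own, so the control value was at background. Vcam1, the ligand by which endothelium holds VLA-4, had a log2 fold change of 0.14 ± 0.47 (SE). Icam1 had 0.79 ± 0.61 (SE), from 13 UMIs in the control and 5, 8 and 30 UMIs in OE-MLKL 1, 2 and 3. Fibroblast and mesothelial markers were at 0.0656 UMIs per 10000 in endothelial cells of the control and 2.59, 0.103 and 1.35 in those of OE-MLKL 1, 2 and 3, high in the 2 libraries in which Cd44 and Icam1 were highest, and their part in the result was not tested. The control lay below all 3 OE-MLKL libraries for Cd44 and Vcam1, 2 of 4 genes beside 44.0% of all genes. In all classes fewer cells of a subtype and less RNA per cell cannot be told apart in such sums.

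After seeing the values, the libraries were set side by side: OE-Vector 1 and OE-MLKL 3 both lay above OE-MLKL 1 and 2 for 8 of 8 genes in T cells, 7 in neutrophils, 7 in cancer cells, 4 in macrophages, 3 in dendritic cells and 1 in endothelial cells. The same held for 34.3%, 23.1%, 29.9%, 22.6%, 25.5% and 23.4% of all genes tested in these classes. Not all 8 genes stood above background in each class. In cancer cells Icam1, Itgal, Itgb2, Itga4 and Selplg were at 0.0531 to 0.148 of their free RNA level. Vcam1 in neutrophils and T cells and Itgam in T cells were also at or close to background. Free RNA of each gene had the same high pair, as for Itgal (57.0, 16.7, 24.0 and 60.9 CPM in OE-Vector 1 and OE-MLKL 1, 2 and 3). Its part in these counts was not tested. TMM scaling, which the fit uses, put the control above all 3 OE-MLKL libraries for 6 of 8 genes in neutrophils, 5 in T cells, 4 in cancer cells, 3 in macrophages and 2 of 7 in dendritic cells (28.5%, 24.1%, 25.4%, 25.9% and 21.8% of all genes), and below them for 0, 0, 0, 1 and 0. In endothelial cells it put the control above them for 0 of 4 genes and below them for 2 (22.4% and 22.1% of all genes).

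A wider list of 59 adhesion genes, 58 of them with a row in the files (other integrins, selectins, further endothelial ligands, the enzymes that make selectin ligands, integrin activators and matrix ligands), was also fitted, of which 54 were tested in cancer cells, 48 in macrophages, 51 in neutrophils, 42 in T cells, 29 in dendritic cells and 33 in endothelial cells. None passed in either direction in any class in edgeR; unadjusted p under 0.05 numbered 4, 4, 7, 6, 1 and 3. The median log2 fold change of the list was -0.08, -0.12, -0.33, -0.17, 0.14 and 0.07 in these classes, beside 0.03, 0.04, 0.04, 0.03, 0.04 and 0.05 for all genes.

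Among genes of that list on one side of the control in all 3 OE-MLKL libraries, Itgax, the alpha chain CD11c, recurred with negative values: -2.40 ± 0.64 (SE) in neutrophils, -2.04 ± 1.10 in macrophages, -1.82 ± 0.94 in T cells and -1.73 ± 1.38 in cancer cells. In neutrophils it was read at 95.7 CPM in the control and 7.49, 20.4 and 36.8 CPM in OE-MLKL 1, 2 and 3. In cancer cells Itgax was at only 2.71 CPM in the control and 0.0407, 0.537 and 2.31 CPM in OE-MLKL 1, 2 and 3. Macrophages held 85.5 CPM in the control and 2.63, 12.2 and 54.4 CPM in OE-MLKL 1, 2 and 3. The part of leaked RNA in these values was not tested. The values of all these classes rest on the same libraries and the same single OE-Vector library, so they are not separate repeats of each other. Itga2, a collagen-binding alpha chain, had -3.16 ± 1.21 in cancer cells, with 7.67 CPM in the control and 0.265, 0.154 and 2.64 CPM in OE-MLKL 1, 2 and 3; in macrophages and neutrophils (-1.99 ± 1.11 and -3.39 ± 1.08) it rested on at most 14 UMIs per library. Fut4, a fucosyltransferase, was at 1.89 ± 0.85 in cancer cells, on 10 to 60 UMIs. Pecam1, the junction protein CD31, was at -2.38 ± 0.94 in macrophages and Jam2 at -2.42 ± 1.10 in neutrophils, the latter on 0 to 19 UMIs per library. In T cells Itgb7 was at -1.64 ± 0.46, with 171 CPM in the control and 24.0, 75.9 and 69.1 CPM in OE-MLKL 1, 2 and 3, and Itgad at -2.78 ± 0.88, on 0 to 40 UMIs. In dendritic cells Cd99l2 was at 2.51 ± 1.42 and Itga6 at 1.23 ± 0.78. These rested on 1 to 21 and 4 to 28 UMIs. In endothelial cells, on 3 to 52 UMIs per gene and library, Rasgrp2 was at 2.28 ± 1.04, Madcam1, the gut-homing ligand of Itga4 with Itgb7, at 1.44 ± 0.72, and St3gal4, a sialyltransferase, at -1.29 ± 0.46. None of these passed the test, all errors are SE, and the smallest edgeR adjusted p of the list was 0.243.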

How the data were processed

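Orthotopic KPC tumours were measured by 10x 3′ single-cell RNA-seq. The deposited values are whole UMI counts for every gene in every barcode, with no normalization or filter by the authors; the file headers name Cell Ranger 7.1.0, the submitters' processing notes Cell Ranger 2.1.1 with mm10 and the study's methods yet another version, and whether intronic reads were counted is not given in the sources used here. Of 32285 gene identifiers, 32158 were found in GENCODE vM21 (GRCm38), which gave the positions.

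A barcode with at least 500 UMIs, more than 200 genes, under 10% mitochondrial and at most 5% haemoglobin UMIs was a cell. A class needed 3 of its markers and a summed marker level over its entry value (5 to 100 UMIs per 10000). Cells with markers of another class were barred, except that monocyte markers did not bar macrophages or dendritic cells. The markers were fixed with the design, the entry values after their distributions had been seen. Counts were summed per class and library and fitted with edgeR 4.0.16 (filterByExpr, TMM, quasi-likelihood F test, R 4.3.3). In simulated data, among genes with enough UMIs, it called 43% (cancer cells) to 82% (endothelial cells) of 4-fold changes. It called 93% to 100% of 16-fold changes, with 7 to 15 false calls among 145 to 192 calls per class. A gene not called may thus still differ 4-fold. Alternatives were limma 3.58.1, DESeq2 1.42.0 and other gates, among them one with 11363 scored doublets removed, which the main values keep. Python 3.11.15, scipy 1.17.1 and scikit-learn 1.9.0 were used.

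The genes and lists were chosen with earlier results of these data known. The named-gene rule took every member in every class, called genes of the wider list or else at most 3 per class with the largest change on one side of the control, and the 3 most alike genes of each member. A few genes that this rule names are not reported here. Beta chains and selectins named beside Itga4 and Selplg were chosen after their values were seen. Libraries came from 1 tumour each, as the methods give it. Intervals cover counting error only.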

Additional observations from a re-analysis of the deposited data

Results flagged for a closer look

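In 6 pairs of classes all 3 OE-MLKL libraries lay above OE-Vector 1 in one class and below it in the other, on CPM and after TMM scaling alike. The difference was not tested, and neither fold change passed its own test. For Cd44, the log2 fold change of endothelial cells exceeded that of neutrophils by 2.66, that of T cells by 2.096 and that of dendritic cells by 2.04, with endothelial counts of 5 to 22 UMIs and the endothelial value of the control at background. For Vcam1, that of endothelial cells exceeded that of cancer cells by 1.78 and that of T cells by 0.85, where T cells were at background. The endothelial value of Vcam1 was itself near 0, at 0.14 ± 0.47 (SE), on 11 to 40 UMIs per library. For Icam1, that of macrophages exceeded that of cancer cells by 1.14, where cancer cells were at or close to background. All 6 rest on the same single OE-Vector library. They were picked from every pair of classes for every gene of the set. On CPM, that library lay outside the OE-MLKL range for 40.5% (dendritic cells) to 59.2% (neutrophils) of all genes tested. The share of all genes with such opposite placements was not computed. Whether the 6 exceed what genes at large would give is therefore not known.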

How the results depend on the processing

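No paired analysis was possible because only 1 OE-Vector library was analysed, so the groups share 1 replicate number. The number of the 8 genes called was 0 in each class under every setting of scaling, filter, tool, gate, depth and doublets. Leaving out 1 OE-MLKL library gave 0 to 1 in cancer cells, 0 to 1 in macrophages and 0 to 4 in neutrophils, the highest each time without OE-MLKL 3, and 0 in the other classes; the cause was not tested. Of 43 log2 fold changes, none called in the main fit, 13 changed sign in at least 1 alternative, in 19 of 468 fits. With library size alone these were Itgam in dendritic cells 0.0596, Itgb2 in macrophages 0.0214, Itga4 in cancer cells 0.18 and Selplg in macrophages 0.0815. Itgam in dendritic cells was at 0.0247 with limma-voom and 0.0105 with scored doublets removed. Leaving out 1 OE-MLKL library, Icam1 ran from -0.39 to 0.0229 in T cells and from -0.40 to 0.15 in dendritic cells. Itgam ran from -0.32 to 0.89 in cancer cells, -0.0652 to 0.67 in macrophages, -0.44 to 0.76 in T cells and -0.12 to 0.14 in dendritic cells. Itga4 ran from -0.90 to 0.33 in cancer cells, -0.16 to 0.27 in T cells and -0.32 to 0.10 in dendritic cells. Selplg ran from -0.84 to 0.0612 in cancer cells, -0.126 to 0.0380 in macrophages and -0.0553 to 0.31 in dendritic cells. The highest class of each gene stayed above the second in all 8 alternatives for 7 genes; for Itga4 a mean over cells put dendritic cells above T cells (log2 ratio -0.21). Library size alone put the median log2 fold change of all genes at 0.14, 0.16 and 0.28 in cancer cells, macrophages and neutrophils. Counts of all genes called ran from 1 to 395 in cancer cells, 0 to 174 in macrophages, 0 to 1560 in neutrophils, 0 to 141 in T cells, 0 to 25 in dendritic cells and 5 to 127 in endothelial cells; the cause was not tested.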
